A study of Mus musculus with 2 samples.

Results

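The subject is a set of 9 genes listed as neurogenic lineage factors, read in nuclei of the mouse hippocampus. The genes are Sox2, Hopx, Sox4, Sox11, Neurod1, Dcx, Prox1, Neurod2 and Meis2. They were chosen by name, as listed lineage factors, and all 9 were among the 32285 genes of the deposited matrices. Their levels were read over cell classes built from other marker genes, and between 2 libraries. The AAV-TAU library held nuclei of C57BL/6J mice given an adeno-associated virus (AAV) coding for full-length 2N4R wild-type human tau. The AAV-STOP library held nuclei of C57BL/6J mice given a control virus whose human MAPT transcript carries a premature stop and yields no tau. Both viruses were injected into the cerebral ventricles on both sides at postnatal day 0, and hippocampi were taken at 6 weeks of age. Each library pooled 3 mice, so there is 1 sample per group and no difference between the groups can be tested. Intervals given below are 95% counting intervals and do not cover the spread between mice or between libraries.

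In the dentate gyrus, radial glia-like stem cells give rise to dividing progenitors, then to neuroblasts and immature neurons, and these mature into granule neurons. Sox2, an HMG-box transcription factor, and Hopx, an atypical homeodomain protein, mark the stem cells, and astrocytes carry both. Sox4 and Sox11, the closely related SoxC factors, act early in neuronal differentiation. Neurod1 is a basic helix-loop-helix factor needed for the survival and maturation of new granule neurons. Dcx codes for doublecortin, a microtubule-binding protein of migrating neuroblasts. Prox1, a homeodomain protein, sets and keeps granule neuron identity. Neurod2 is a basic helix-loop-helix factor of excitatory neurons. Meis2, a homeodomain cofactor, is known from interneurons and from the precursors that supply the olfactory bulb.

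Of the 13 classes with 100 or more nuclei in both libraries, the immature neuron-like class had the highest level of Dcx, Sox11, Prox1 and Neurod1 in both libraries. The sequences just upstream of these 4 genes are shown because the genes share that class. They come from RefSeq (GRCm38.p6), run 5′ to 3′ on the gene's strand, and are limited to bases outside the gene as GENCODE M21 draws it. All 4 genes lie on the minus strand. The stretches are chrX:143933312-143933469 for Dcx, chr12:27342719-27342968 for Sox11, chr1:190170828-190171077 for Prox1 and chr2:79456752-79456886 for Neurod1. Capitals mark the one match to the 3 motifs searched.
Dcx: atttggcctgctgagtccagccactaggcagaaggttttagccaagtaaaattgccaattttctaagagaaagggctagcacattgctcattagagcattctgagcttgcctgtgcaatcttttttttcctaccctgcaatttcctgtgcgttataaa
Sox11: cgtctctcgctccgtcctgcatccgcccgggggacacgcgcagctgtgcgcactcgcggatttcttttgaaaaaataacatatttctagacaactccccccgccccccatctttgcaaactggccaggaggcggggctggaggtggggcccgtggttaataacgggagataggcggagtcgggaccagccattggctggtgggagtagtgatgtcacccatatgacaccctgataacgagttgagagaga
Prox1: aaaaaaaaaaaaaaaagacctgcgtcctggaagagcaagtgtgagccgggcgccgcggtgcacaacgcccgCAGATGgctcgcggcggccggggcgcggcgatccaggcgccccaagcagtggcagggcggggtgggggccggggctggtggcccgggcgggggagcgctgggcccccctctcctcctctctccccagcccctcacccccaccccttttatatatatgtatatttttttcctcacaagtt
Neurod1: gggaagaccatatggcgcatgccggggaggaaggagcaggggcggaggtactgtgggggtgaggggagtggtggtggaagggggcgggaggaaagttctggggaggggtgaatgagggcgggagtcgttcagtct

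The motifs were CAGATG, an E-box of the NeuroD type, ACAAAG, a SOX motif, and TGACAG, a MEIS motif, each looked for on both strands. None of the matches overlapped another. Over the 250 bases before the start, CAGATG was found once at Prox1 and once at Neurod2, ACAAAG once at Sox2, and TGACAG once at Neurod2 and once at Sox2. The windows searched for Dcx, Sox11, Sox4, Neurod1, Meis2 and Hopx held none of the 3. RefSeq gave 2 windows each for Dcx, Prox1 and Hopx, and only the first was searched. Over 27025 mouse promoters of the same length, 14.5% held CAGATG, 16.5% held ACAAAG and 16.0% held TGACAG. A match in such a window is a description of letters only.

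After filtering, 17279 AAV-TAU and 17709 AAV-STOP nuclei were kept, with a median of 4952 and 5589 unique molecular identifiers (UMIs, counts of captured RNA molecules). The median share of mitochondrial UMIs was 0.280% in AAV-TAU and 0.172% in AAV-STOP. The libraries shared 116 cell barcodes, 90 of them among the kept nuclei. Clustering gave 35 clusters, of which 25 took a name from markers and formed 16 classes. The 9 genes took part neither in the clustering nor in the names. Unnamed clusters held 3230 AAV-TAU and 3274 AAV-STOP nuclei. Neither matrix has a row for the viral transcript, so the label of a library was not checked against its transgene.

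The immature neuron-like class is the one in which this lineage is best represented. It held 427 AAV-TAU nuclei, 2.47% of the library (2.24 to 2.71), and 531 AAV-STOP nuclei, 3.00% (2.75 to 3.26). The ratio of the shares was 0.824 (0.724 to 0.938). A smaller share in AAV-TAU was not particular to this class: granule-like nuclei made up 24.2% in AAV-TAU and 29.4% in AAV-STOP. Other shares were larger in AAV-TAU, such as astrocyte-like (4.90% and 3.13%), microglia-like (2.95% and 0.892%) and oligodendrocyte-like nuclei (11.9% and 9.37%). Leading genes of the immature neuron-like class included Sema3c, Igfbpl1 and St8sia2. Its 12 immature neuron markers summed to 1755 CPM (counts per 1000000 UMIs of the class) in AAV-TAU and 1733 CPM in AAV-STOP. Markers of other types were also present: the 10 granule markers summed to 1677 and 1934 CPM, the 9 oligodendrocyte markers to 1154 and 964 CPM, and the 8 astrocyte markers to 516 and 529 CPM, AAV-TAU given first. Their part in the levels below was not tested.

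**Figure D1:**
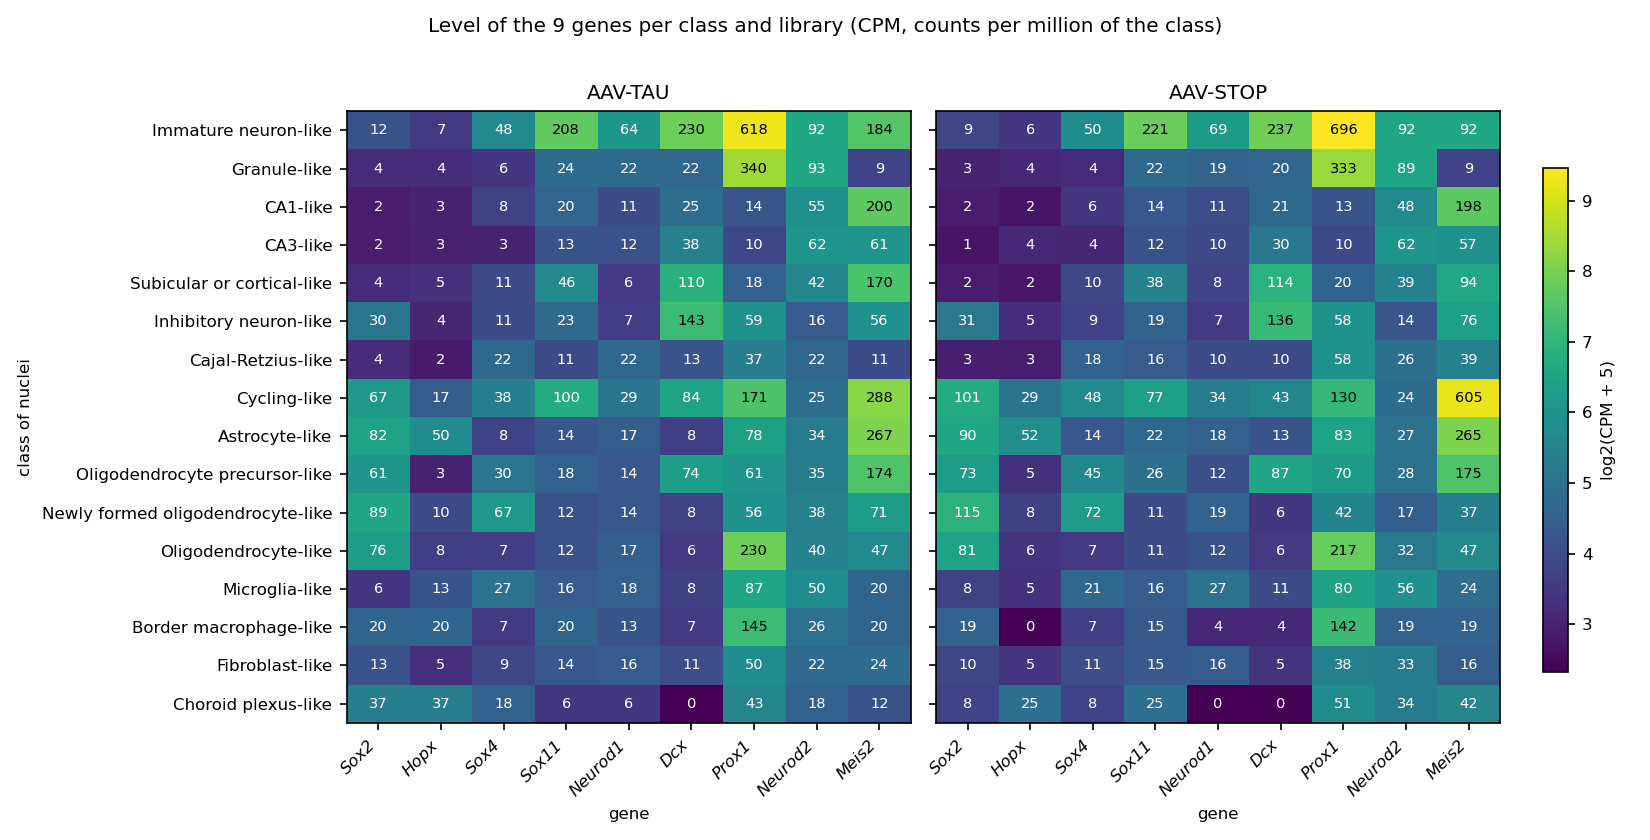
Level of the 9 genes in 16 classes of nuclei, as CPM, with AAV-TAU on the left and AAV-STOP on the right. Colour is log2(CPM + 5) and the printed numbers are CPM rounded to whole counts. The immature neuron-like row carries the highest Prox1, Dcx and Sox11 values of both panels. Sox2 stands in the astrocyte-like row, the rows of the oligodendrocyte series and the cycling-like row. Over both libraries together Hopx stood at 51.2 CPM in astrocyte-like, 31.9 CPM in choroid plexus-like and 22.3 CPM in cycling-like nuclei.

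Among the compared classes the stem cell factors were highest in glia. In astrocyte-like nuclei Hopx stood at 50.5 CPM (41.6 to 60.7) in AAV-TAU and 52.4 CPM (41.6 to 65.0) in AAV-STOP. In the other 12 compared classes it stood between 1.59 and 12.8 CPM in the libraries taken singly. Sox2 was present in astrocyte-like nuclei and along the oligodendrocyte series, but low in microglia-like nuclei, at 5.91 CPM in AAV-TAU and 8.04 CPM in AAV-STOP. Astrocyte-like nuclei had 82.2 CPM in AAV-TAU and 90.0 CPM in AAV-STOP, next to 60.8 and 72.8 CPM in oligodendrocyte precursor-like nuclei of the same libraries. In oligodendrocyte-like nuclei Sox2 stood at 75.7 CPM in AAV-TAU and 81.3 CPM in AAV-STOP, and newly formed oligodendrocyte-like nuclei had 88.7 CPM (64.5 to 119) in AAV-TAU and 115 CPM (90.5 to 145) in AAV-STOP. In AAV-TAU the intervals of these 4 classes overlap, while in AAV-STOP that of newly formed oligodendrocyte-like nuclei lies above those of oligodendrocyte precursor-like (61.0 to 86.2) and oligodendrocyte-like nuclei (73.4 to 89.9). Among neurons Sox2 was highest in inhibitory neuron-like nuclei, at 30.0 CPM in AAV-TAU and 30.5 CPM in AAV-STOP. In granule-like nuclei it stood at 4.26 CPM in AAV-TAU and 3.01 CPM in AAV-STOP. Sox2 lies inside Sox2ot on the same strand and Hopx is overlapped by the antisense gene Hopxos, so reads of these pairs may not be told apart in full.

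Within the astrocyte-like class, Hopx was unevenly spread. Sub-cluster 2, with 145 AAV-TAU and 96 AAV-STOP nuclei, had Hopx at 99.8 CPM (69.9 to 138) in AAV-TAU and 138 CPM (95.6 to 193) in AAV-STOP. The larger sub-clusters 0 and 1 had Hopx at 39.2 and 36.6 CPM in AAV-TAU, and at 35.6 and 35.5 CPM in AAV-STOP. The intervals of sub-cluster 2 do not overlap those of the larger sub-clusters in either library. Prox1 followed the same split, with 155 CPM in AAV-TAU and 187 CPM in AAV-STOP in sub-cluster 2, against 46.0 to 78.6 CPM in sub-clusters 0 and 1. Meis2 ran the other way, with 149.6 CPM in AAV-TAU and 187 CPM in AAV-STOP in sub-cluster 2, and 237 to 334 CPM in sub-clusters 0 and 1. Sox2 differed less, at 108 CPM in AAV-TAU and 118 CPM in AAV-STOP in sub-cluster 2.

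Over both libraries together, some genes of the stem cell list were higher in sub-cluster 2 than in sub-clusters 0 and 1, and others were not; the genes named were chosen after their values were seen. Thrsp stood at 324 CPM there, against 54.5 and 130 CPM in sub-clusters 0 and 1. Notch2, a receptor that keeps neural stem cells quiescent, stood at 501 CPM against 119 and 149.5 CPM. Tfap2c, a transcription factor of neural progenitors, stood at 52.7 CPM. Nes, the intermediate filament nestin, stood at 11.5 CPM. Tfap2c and Nes had no UMI in sub-clusters 0 and 1. Sox9, a glial and stem cell factor, was lower in sub-cluster 2, at 47.8 CPM against 56.4 and 54.6 CPM, and so was Hes1, a Notch target, at 46.1 CPM against 55.8 and 50.5 CPM. Hes5 and Id4 lay between sub-clusters 0 and 1. Gfap stood at 153 CPM in sub-cluster 2, against 46.0 and 87.4 CPM in sub-clusters 0 and 1. It was highest in sub-cluster 3, at 588 CPM. The sub-cluster keeps its number here, since no marker set for stem cells was fixed for naming.

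**Figure D2:**
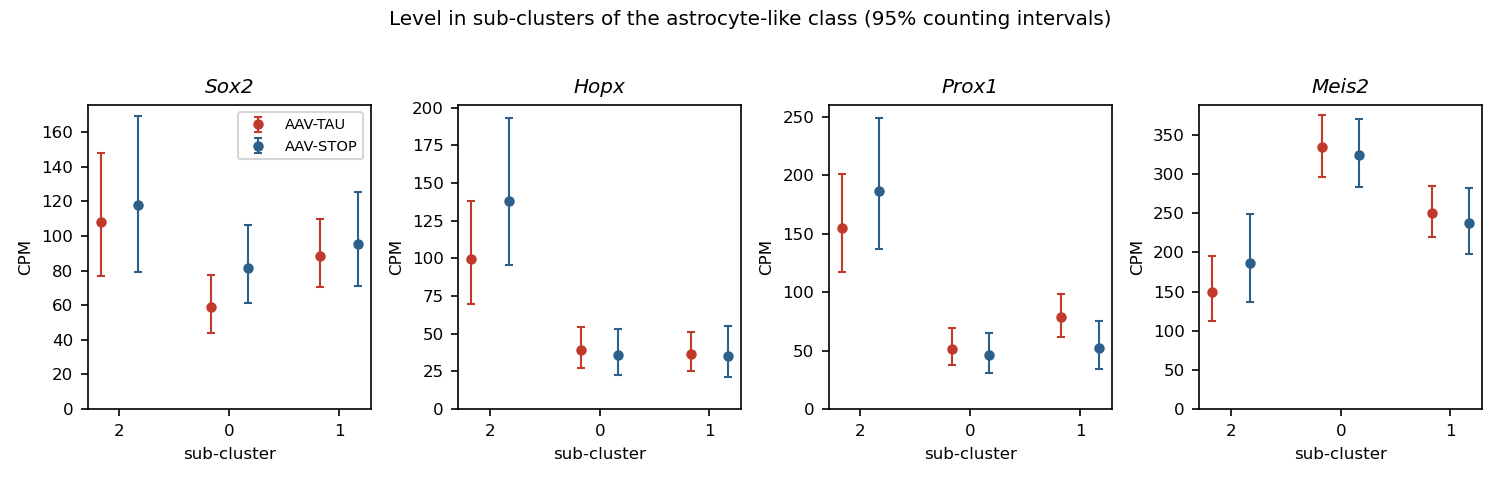
CPM of Sox2, Hopx, Prox1 and Meis2 in the 3 largest sub-clusters of the astrocyte-like class, AAV-TAU in red left of AAV-STOP in blue, with 95% counting intervals. Hopx and Prox1 are highest in sub-cluster 2 and Meis2 is lowest there, in both libraries.

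Between the libraries, 3 of the 9 genes were above the count floors in astrocyte-like nuclei. The floors were 100 UMIs and 20 CPM in the library with the higher level, and a ratio past 1.3-fold was counted as a difference in size. None of the 3 passed it, where 12.3% of 4232 genes passed it upward and 4.16% downward. Sox2 had a ratio of AAV-TAU over AAV-STOP of 0.913 (0.729 to 1.14) and Prox1 of 0.941 (0.746 to 1.19). Of the 18 genes of the stem cell list, 6 were above the floors. Of these 3 were higher and 3 lower, with a median log2 ratio of -0.0049 beside 0.05 for all genes, 59.7% of which were higher. Gfap, an intermediate filament of astrocytes and stem cells, stood at 81.7 CPM in AAV-TAU and 122 CPM in AAV-STOP, and Pax6, a stem cell transcription factor, at 67.9 and 56.8 CPM in the same order. Sox2 was above the floors in 4 classes and had a ratio below 1 in each, with log2 ratios of -0.24 to -0.02; in oligodendrocyte-like and inhibitory neuron-like nuclei the sign turned to 0.21 and 0.13 when every nucleus was thinned to 1600 UMIs, and with marked doublets kept to 0.01 in oligodendrocyte-like nuclei. Hopx was above the floors in no class. As thinned shares of astrocyte-like nuclei, Hopx was found in 7.79% in AAV-TAU and 8.48% in AAV-STOP, against 1.57% and 0.633% of microglia-like nuclei, which should lack it.

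The SoxC factors, Neurod1 and Dcx peaked among immature neurons, with 1 exception. Dcx stood at 230.3 CPM (206 to 257) in AAV-TAU and 237 CPM (216 to 260) in AAV-STOP in immature neuron-like nuclei. In granule-like nuclei, the mature form of the lineage, Dcx stood at 21.7 CPM in AAV-TAU and 20.1 CPM in AAV-STOP. Sox11 stood at 208 CPM (184 to 233) in AAV-TAU and 221 CPM (199.9 to 243) in AAV-STOP in immature neuron-like nuclei, and at 24.0 and 22.2 CPM in granule-like nuclei of the same libraries. Neurod1 stood at 63.8 CPM (51.1 to 78.7) in AAV-TAU and 68.9 CPM (57.5 to 81.9) in AAV-STOP in immature neuron-like nuclei, and at 22.2 and 19.2 CPM in granule-like nuclei. All 3 were thus several times as high in immature neuron-like as in granule-like nuclei, with intervals far apart. Neurod1 lies inside Cerkl on the same strand.

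Sox4 was the exception. It stood at 47.7 CPM (36.8 to 60.8) in AAV-TAU and 50.2 CPM (40.6 to 61.5) in AAV-STOP in immature neuron-like nuclei, and at 66.5 CPM (45.8 to 93.5) and 71.7 CPM (52.5 to 95.6) in newly formed oligodendrocyte-like nuclei. The intervals of these classes overlap in both libraries. Oligodendrocyte precursor-like nuclei came next, with 30.1 CPM in AAV-TAU and 45.3 CPM in AAV-STOP. Mature oligodendrocyte-like nuclei had 7.21 CPM in AAV-TAU and 6.56 CPM in AAV-STOP. Sox4 was thus high in the young stage of both the neuronal and the oligodendrocyte series. In no class did it pass the floors for a ratio. The antisense gene Gm26735 overlaps Sox4.

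Dcx was not limited to immature neurons. Inhibitory neuron-like nuclei had 143 CPM (135 to 151) in AAV-TAU and 136 CPM (129 to 144) in AAV-STOP. Subicular or cortical-like nuclei had 110.2 CPM (99.6 to 122) in AAV-TAU and 114 CPM (102 to 126) in AAV-STOP. Oligodendrocyte precursor-like nuclei had 74.4 CPM (62.0 to 88.6) in AAV-TAU and 87.4 CPM (74.4 to 102) in AAV-STOP. After these came CA3-like nuclei with 37.9 and 29.7 CPM, and CA1-like nuclei with 25.04 and 21.2 CPM, AAV-TAU given first. Among inhibitory subtypes Dcx ran highest in Cnr1-rich-like nuclei, with 192 CPM in AAV-TAU and 182 CPM in AAV-STOP. Pvalb-like nuclei had 180.2 CPM (154 to 209) in AAV-TAU and 131 CPM (111 to 153) in AAV-STOP, and Sst-like nuclei had 163 and 156 CPM in the same order. It was lower in Vip-like nuclei, at 84.2 and 78.0 CPM, and in Lamp5-like nuclei, at 66.9 and 82.3 CPM. The subtypes were read from sub-clusters named by their own markers. Sub-clusters 0, 7, 9, 10, 11 and 12 took no name and are left out of the subtypes. Of these, sub-cluster 9, with 339 nuclei, scored highest for Lamp5 markers, and sub-cluster 7, with 160, for Pvalb markers.

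As shares of nuclei with at least 1 UMI, Dcx was found in 47.1% of immature neuron-like nuclei in AAV-TAU (42.3 to 51.9) and 53.7% in AAV-STOP (49.3 to 58.0). In inhibitory neuron-like nuclei the shares were 50.9% and 53.4%, but these nuclei were deeper, with a median of 5780 and 6192 UMIs against 2745 and 2841 in immature neuron-like nuclei. Thinned to 1600 UMIs each, 33.3% of AAV-TAU and 35.8% of AAV-STOP immature neuron-like nuclei kept a Dcx UMI, and 17.8% and 18.7% of inhibitory neuron-like nuclei did. In oligodendrocyte-like nuclei, which should lack Dcx and have a median of 2392 and 2585 UMIs, the shares were 1.603% in AAV-TAU and 1.57% in AAV-STOP before thinning and 1.02% and 0.964% after it. For Sox11 the thinned shares in immature neuron-like nuclei were 30.9% in AAV-TAU and 32.4% in AAV-STOP, against 1.75% and 1.57% in oligodendrocyte-like nuclei. For Neurod1 they were 10.5% and 11.3%, against 2.28% and 2.17% in oligodendrocyte-like nuclei. The thinned share of Neurod1 in granule-like nuclei, 3.45% in AAV-TAU and 2.88% in AAV-STOP, lies close to that background, and microglia-like nuclei had 2.55% and 5.06%. For Sox4 the thinned shares were 7.96% in AAV-TAU and 7.72% in AAV-STOP of immature neuron-like nuclei, against 0.826% and 0.904% of oligodendrocyte-like nuclei.

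Prox1 marked the granule lineage from its immature stage on. Immature neuron-like nuclei had 618 CPM (577 to 661) in AAV-TAU and 696 CPM (659 to 735) in AAV-STOP. Granule-like nuclei had 340.3 CPM (333 to 348) in AAV-TAU and 333 CPM (326 to 339) in AAV-STOP, from 4175 and 5206 nuclei. CA1-like nuclei had 13.6 and 12.7 CPM, and CA3-like nuclei 9.74 and 9.80 CPM, AAV-TAU given first. After thinning, 61.4% of AAV-TAU and 62.0% of AAV-STOP immature neuron-like nuclei had a Prox1 UMI, 38.5% and 38.8% of granule-like nuclei, and 2.67% and 2.07% of CA1-like nuclei, which should lack it.

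Prox1 was also found in oligodendrocyte-like nuclei, at 229.6 CPM (217 to 243) in AAV-TAU and 217 CPM (204 to 231) in AAV-STOP. The thinned share with Prox1 there was 29.5% in AAV-TAU and 27.8% in AAV-STOP, against 12.4% and 12.7% in microglia-like nuclei, which should lack it. Oligodendrocyte precursor-like nuclei had 61.4 CPM in AAV-TAU and 69.6 CPM in AAV-STOP, and newly formed oligodendrocyte-like nuclei 56.5 and 42.1 CPM. Prox1 was thus lower in both younger stages than in the mature one. The 10 granule markers summed to 2977 CPM in AAV-TAU and 3336 CPM in AAV-STOP in oligodendrocyte-like nuclei. In granule-like nuclei they summed to 4369 and 4615 CPM, and in oligodendrocyte precursor-like nuclei to 770 and 879 CPM. In newly formed oligodendrocyte-like nuclei the sums were 752 and 687 CPM, and in microglia-like nuclei 1209 and 1485 CPM. The part of granule neuron RNA in these Prox1 levels was not tested. Among the named inhibitory subtypes Prox1 split by type. Vip-like nuclei had 286 CPM (249 to 327) in AAV-TAU and 321 CPM (284 to 362) in AAV-STOP, and Lamp5-like nuclei 174 and 160.2 CPM. Cnr1-rich-like nuclei had 61.3 and 52.8 CPM, Sst-like nuclei 20.8 and 12.03 CPM, and Pvalb-like nuclei 12.4 and 21.3 CPM, AAV-TAU given first. The antisense genes Prox1os and Gm28172 overlap Prox1.

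Neurod2 did not mark the immature stage. It stood at 92.4 CPM in immature neuron-like nuclei of both libraries (77.0 to 110.0 in AAV-TAU, 79.2 to 107 in AAV-STOP), beside 93.0 CPM in AAV-TAU and 88.5 CPM in AAV-STOP in granule-like nuclei. These values do not differ beyond their intervals. CA3-like nuclei followed with 62.0 and 62.4 CPM and CA1-like nuclei with 54.7 and 47.9 CPM, AAV-TAU given first. Inhibitory neuron-like nuclei had 15.6 CPM in AAV-TAU and 13.6 CPM in AAV-STOP. Microglia-like nuclei, which should lack it, had 50.2 CPM (37.4 to 66.1) in AAV-TAU and 56.3 CPM (34.8 to 86.0) in AAV-STOP. The thinned shares of nuclei with Neurod2 were 14.4% in AAV-TAU and 12.98% in AAV-STOP in granule-like nuclei, 11.7% and 12.8% in immature neuron-like nuclei, and 7.66% and 7.59% in microglia-like nuclei. CA1-like nuclei, at 7.70% and 6.95%, were at that background.

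Within the immature neuron-like class, the genes differed in level over sub-clusters. Sub-cluster 0, with 71 AAV-TAU and 88 AAV-STOP nuclei, had the highest Eomes of the 6 sub-clusters, at 89.5 CPM over both libraries; Eomes is the transcription factor of intermediate progenitors. It also had Igfbpl1, a neuroblast gene, at 493 CPM. There Sox4 stood at 159 CPM (104 to 233) in AAV-TAU and 87.8 CPM (53.6 to 136) in AAV-STOP, Dcx at 404 CPM (313 to 514) and 298 CPM (232 to 378), and Prox1 at 331 CPM (249 to 432) and 448 CPM (365 to 543). The intervals of the libraries overlap for all 3 genes. Sub-cluster 1, with 58 and 67 nuclei, took the name granule-like from its own markers. Of the granule maturation list it had the highest Rfx3 and Stxbp6 of the 6 sub-clusters, at 1719 and 598 CPM, but not the highest Camk4, Bcl11b or C1ql2; Camk4 stood at 142 CPM there, against 234 CPM in sub-cluster 2 and 525 CPM in sub-cluster 5. There Sox4 stood at 8.87 CPM in AAV-TAU and 28.3 CPM in AAV-STOP, Dcx at 106 and 92.6 CPM, Sox11 at 115 and 94.5 CPM, and Prox1 at 544 and 510.3 CPM. In AAV-TAU sub-clusters 2, 3 and 5 lay between these for Dcx, while in AAV-STOP sub-cluster 2 had the highest Dcx of the 5, at 334 CPM. Sub-clusters 2, 3 and 5 had the highest Prox1, at 723 to 742 CPM in AAV-TAU and 792 to 885 CPM in AAV-STOP.

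**Figure D3:**
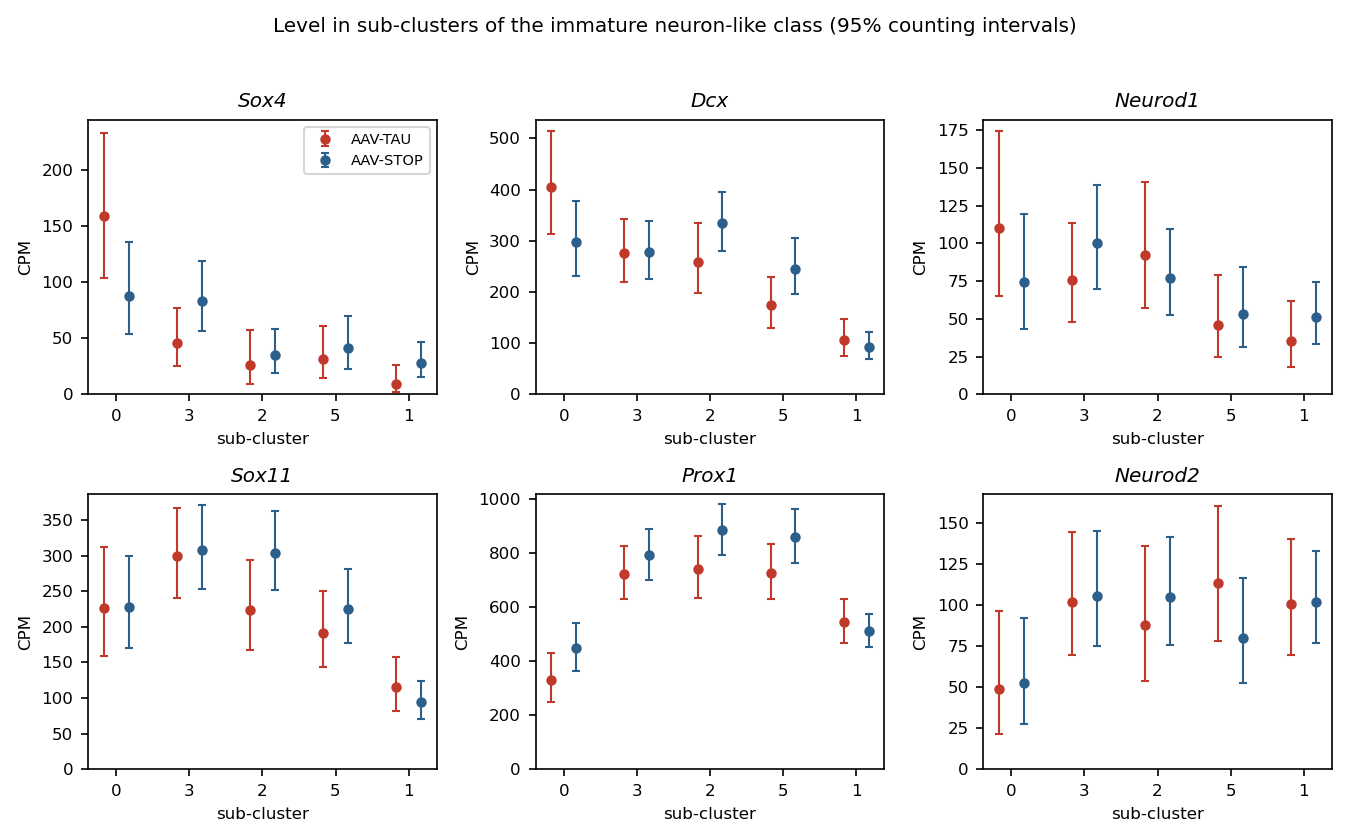
CPM of 6 genes in 5 sub-clusters of the immature neuron-like class, AAV-TAU in red left of AAV-STOP in blue, with 95% counting intervals. Sub-cluster 0 had the highest Eomes and sub-cluster 1 the highest Rfx3 and Stxbp6; Sox4 and Dcx are highest at the left in AAV-TAU and low at the right in both libraries, while Prox1 peaks in the middle. Sub-cluster 4 is left out here because of its 7 AAV-STOP nuclei.

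Dcx and Prox1 were found together in 36.1% of AAV-TAU immature neuron-like nuclei (31.5 to 40.8) and 43.5% of AAV-STOP ones (39.2 to 47.8). Among AAV-TAU nuclei Prox1 was found in 76.6% of those with Dcx and 77.9% of those without it. Among AAV-STOP nuclei it was found in 81.1% of those with Dcx and 86.2% of those without it. Sox11 was found in 50.7% of AAV-TAU nuclei with Dcx and 42.5% of those without, and in 52.3% and 43.9% of AAV-STOP nuclei. Such shares move with depth, since a deeper nucleus is more likely to show either gene. The unthinned shares of Prox1, 77.3% in AAV-TAU and 83.4% in AAV-STOP, were closer after thinning.

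Between the libraries, 6 of the 9 genes were above the floors in immature neuron-like nuclei. Of these 1 passed 1.3-fold, Meis2, upward, where 4.38% of 3588 genes passed upward and 3.21% downward. The Dcx ratio of AAV-TAU over AAV-STOP was 0.971 (0.837 to 1.12), that of Sox11 0.941 (0.806 to 1.10), that of Neurod1 0.926 (0.697 to 1.22) and that of Neurod2 1.00 (0.788 to 1.27). These intervals include 1 and leave room for a difference of about the size of their bounds in either direction. Prox1 had a ratio of 0.887 (0.812 to 0.968), with the interval below 1 and the change within 1.3-fold. Prox1 was lower in AAV-TAU in sub-clusters 0, 2, 3 and 5 and higher in sub-clusters 1 and 4. The immature neuron markers summed alike in both libraries, and the granule markers summed lower in AAV-TAU; the part of that in the Prox1 ratio was not tested.

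The lineage lists in immature neuron-like nuclei stood as follows. Of all genes above the floors there, 43.2% were higher in AAV-TAU. Of 16 neuroblast and immature neuron genes, 10 were above the floors, 7 higher and 3 lower, with 1 past 1.3-fold and a median log2 ratio of 0.07 beside -0.03 for all genes. Tubb3, the neuronal beta-tubulin, stood at 152 CPM in AAV-TAU and 115 CPM in AAV-STOP, and Igfbpl1 at 288 and 246 CPM in the same order. Of 10 progenitor and cell cycle genes 2 were above the floors, both higher and past 1.3-fold: Ccnd2, the cyclin of cycling progenitors, at 118 CPM in AAV-TAU and 82.8 CPM in AAV-STOP, and Elavl4, a neuronal RNA-binding protein, at 82.1 and 57.7 CPM. Ccnd2 was also higher in AAV-TAU in astrocyte-like nuclei, at 66.5 CPM against 42.8 CPM in AAV-STOP. Of the immature sub-clusters, Ccnd2 was highest in sub-cluster 4, at 635 CPM over both libraries. That sub-cluster held 21 AAV-TAU and 7 AAV-STOP nuclei, and its part in the Ccnd2 ratio was not tested. Of 11 granule maturation genes 8 were above the floors, 3 higher and 5 lower, none past 1.3-fold, with a median of -0.08. Icam5, a dendritic adhesion molecule, stood at 96.1 CPM in AAV-TAU and 75.9 CPM in AAV-STOP, and Rfx3, a transcription factor, at 950.5 and 1131 CPM. Of 13 paralogs and partners of the 9 genes 4 were above the floors and 1 past 1.3-fold: Neurod6, a NeuroD factor of pyramidal neurons, at 96.8 CPM in AAV-TAU and 57.2 CPM in AAV-STOP. Dclk2, a doublecortin-like kinase, stood at 194 and 159.8 CPM in the same order. Neurod6 was higher in AAV-TAU in other classes as well, at 39.3 and 26.8 CPM in granule-like nuclei, AAV-TAU given first. It stood at 63.4 and 44.1 CPM in astrocyte-like nuclei, and at 70.3 and 48.0 CPM in oligodendrocyte precursor-like nuclei.

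In granule-like nuclei 5 of the 9 genes were above the floors. All 5 had ratios above 1, with log2 ratios of 0.03 to 0.17, and none passed 1.3-fold, where 3.26% of 7063 genes passed upward and 0.0425% downward. The ratio of Prox1 was 1.02 (0.992 to 1.05), that of Neurod2 1.05 (0.991 to 1.11), that of Dcx 1.08 (0.954 to 1.22), that of Sox11 1.08 (0.962 to 1.21) and that of Neurod1 1.16 (1.03 to 1.31). Of the 7063 genes of the class above the floors 68.0% had a ratio above 1, and their median log2 ratio was 0.05. Under median-of-ratios scaling the Prox1 log2 ratio turned to -0.02. Gene length moved with the ratio in every compared class. In granule-like nuclei the 359 genes shorter than 5 kb had 0.29 as their median log2 ratio and 94.7% of them lay above 0, and the 1664 genes longer than 100 kb had a median of -0.03. Neurod1 and Neurod2, of 4.23 kb each, had log2 ratios of 0.17 and 0.07. In immature neuron-like nuclei the 103 genes under 5 kb had a median of 0.26, and Neurod1 and Neurod2 had log2 ratios of -0.10 and 0.00. The part of gene length in these ratios was not tested. The granule maturation list had 10 of 11 genes above the floors, 3 higher and 7 lower. The neuroblast list had 8 of 16, 7 higher and 1 lower with 3 past 1.3-fold. Both lists stand beside the 68.0% of all genes that were higher. Stmn1, a tubulin-binding protein, stood at 80.0 CPM in AAV-TAU and 49.2 CPM in AAV-STOP, and Tubb3 at 55.4 and 38.5 CPM. Both were higher in AAV-TAU in glia as well. In astrocyte-like nuclei Stmn1 stood at 137 and 101 CPM and Tubb3 at 77.2 and 58.7 CPM, AAV-TAU given first. In oligodendrocyte precursor-like nuclei they stood at 120 and 75.5 CPM and at 74.4 and 58.8 CPM.

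In the other classes the 9 genes passed 1.3-fold only for Meis2. In CA1-like nuclei 3 genes were above the floors and none passed, where 2.87% of genes passed upward and 0.0583% downward; Neurod2 had a ratio of 1.14 (1.04 to 1.26) and Dcx of 1.18 (1.02 to 1.37). In CA3-like nuclei none of 3 passed, where 2.68% passed upward and 0.396% downward. There Dcx stood at 37.9 CPM (33.8 to 42.3) in AAV-TAU and 29.7 CPM (26.3 to 33.5) in AAV-STOP, a ratio of 1.27 (1.08 to 1.51). With marked doublets kept, the CA1-like log2 ratio of Dcx turned to -0.03 while the CA3-like one was 0.31. In oligodendrocyte-like nuclei none of 4 passed, where 10.6% passed upward and 1.48% downward; Neurod2 stood at 39.8 CPM in AAV-TAU and 31.5 CPM in AAV-STOP, and these nuclei should lack it. In oligodendrocyte precursor-like nuclei 4 genes were above the floors and all 4 had ratios below 1, none past 1.3-fold, where 8.44% passed upward and 2.77% downward. There Dcx had a ratio of 0.852 (0.669 to 1.08), Sox2 of 0.835 (0.640 to 1.09), Prox1 of 0.883 (0.675 to 1.15) and Meis2 of 0.994 (0.846 to 1.17). All 4 intervals include 1, and of all genes of that class above the floors 48.3% were higher in AAV-TAU. With marked doublets kept Meis2 turned to a log2 ratio of 0.06. None of the 9 genes was above the floors in the 4 thinnest compared classes. The shares of genes past 1.3-fold upward and downward were 9.92% and 9.92% in Cajal-Retzius-like, 9.51% and 16.3% in fibroblast-like, 20.2% and 3.29% in microglia-like, and 4.3% and 8.08% in newly formed oligodendrocyte-like nuclei.

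**Figure D4:**
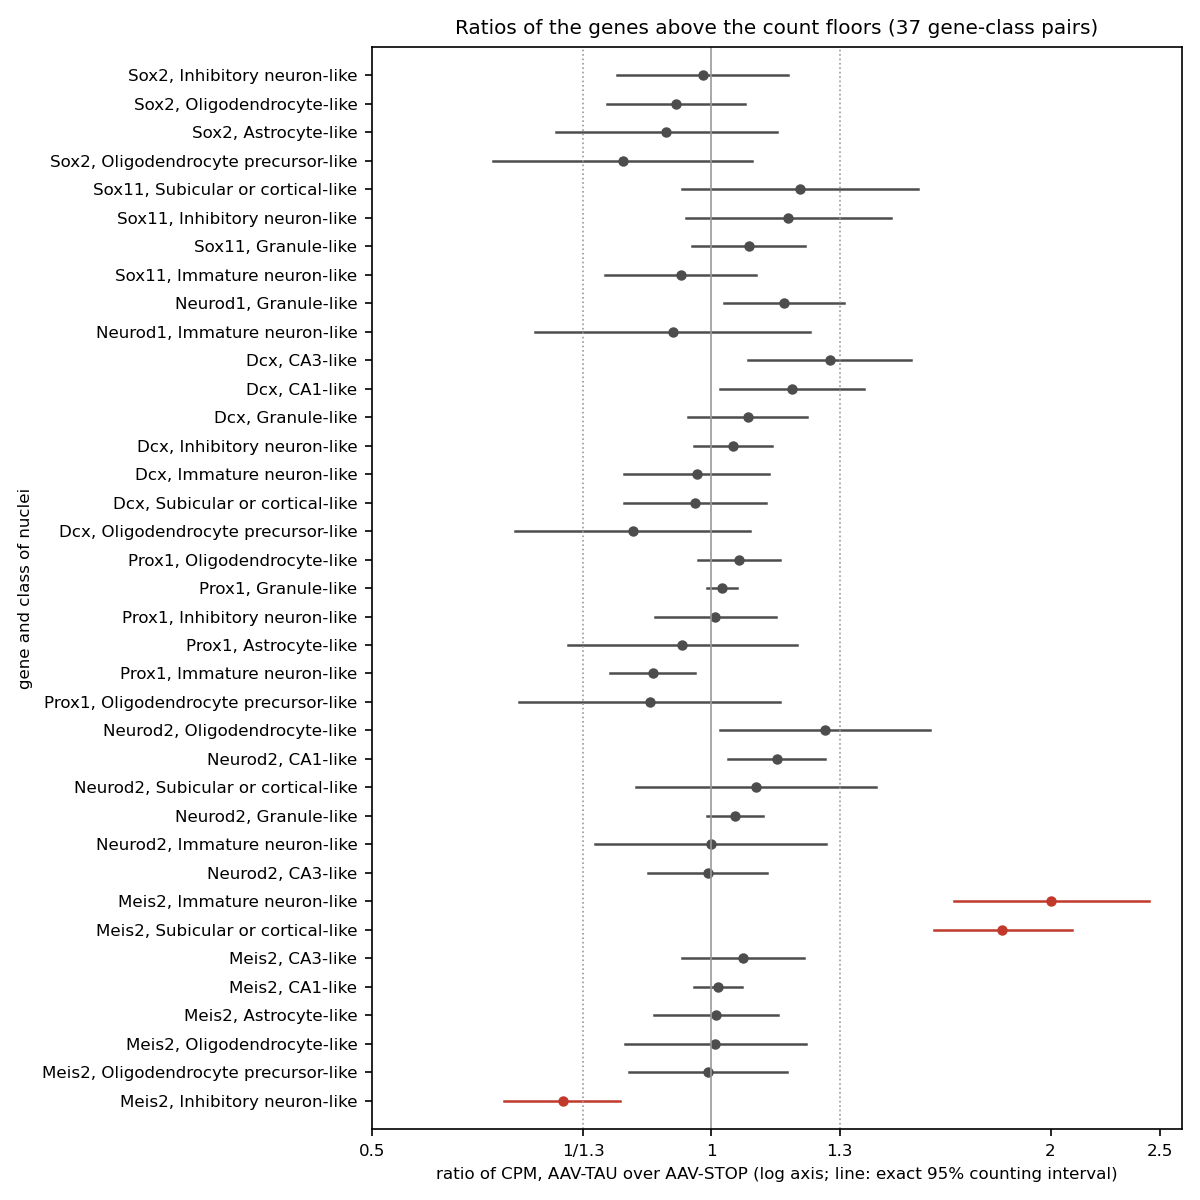
Ratio of AAV-TAU over AAV-STOP for the 37 gene-class pairs above the count floors, on a log axis, with exact 95% counting intervals. Dotted lines mark 1.3-fold in either direction; the 3 red pairs past it are Meis2 in immature neuron-like, subicular or cortical-like and inhibitory neuron-like nuclei.

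Over the 13 compared classes 37 of 117 gene-class pairs were above the floors, 21 with a ratio above 1 and 16 below. Of these 3 passed 1.3-fold, and all 3 were Meis2. In the classes where any of the 9 genes was above the floors, 2.68% to 12.3% of all genes passed upward. Downward it was 0.0425% to 4.16%. Of all genes above the floors in those classes, 43.2% to 68.0% had a ratio above 1. Meis2 itself was read in 8 classes. It was highest in astrocyte-like nuclei, at 267 CPM (246 to 289.8) in AAV-TAU and 265 CPM (240.1 to 292) in AAV-STOP. CA1-like nuclei had 200.5 CPM (193 to 208) and 198 CPM (191 to 204), and oligodendrocyte precursor-like nuclei 174 and 175 CPM, AAV-TAU given first. In these 3 classes the ratios lay between 0.994 and 1.01. Granule-like nuclei had 8.61 CPM in AAV-TAU and 8.58 CPM in AAV-STOP, below the 47.2 and 46.8 CPM of oligodendrocyte-like nuclei, which should lack it. The thinned share with Meis2 in oligodendrocyte-like nuclei was 6.80% in AAV-TAU and 5.97% in AAV-STOP. The share in inhibitory neuron-like nuclei, 4.39% and 5.42%, was no higher, and that in immature neuron-like nuclei was 8.43% and 6.03%.

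In immature neuron-like nuclei Meis2 stood at 184 CPM (162 to 208) in AAV-TAU and 91.9 CPM (78.7 to 107) in AAV-STOP, a ratio of 2.00 (1.64 to 2.45). The difference rested on few nuclei. Sub-cluster 4, led by Dlx6os1, Sox2ot, Nrxn3, Erbb4 and Pbx3, held 21 AAV-TAU and 7 AAV-STOP nuclei and took the name inhibitory neuron-like from its own markers, 5 of which were raised. Those nuclei carried 202 of the 251 AAV-TAU Meis2 UMIs and 82 of the 172 AAV-STOP ones. Their Meis2 level was 4141 CPM in AAV-TAU and 5185 CPM in AAV-STOP, with 20 of 21 and 7 of 7 nuclei positive. Without them Meis2 stood at 37.3 CPM in AAV-TAU and 48.5 CPM in AAV-STOP, a ratio of 0.769 (0.531 to 1.10), and the log2 ratio turned to -0.34. Prox1 in sub-cluster 4 stood at 205 CPM in AAV-TAU and 63.2 CPM in AAV-STOP, from 10 UMIs and 1 UMI, Dcx at 410.0 and 632 CPM, and Neurod1 had no UMI in either library. Dlx6os1, the host transcript of a Dlx gene cluster, is an inhibitory neuron marker. The 6 inhibitory neuron markers summed to 432 CPM in AAV-TAU and 318 CPM in AAV-STOP over the whole class.

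In inhibitory neuron-like nuclei Meis2 stood at 56.2 CPM (51.3 to 61.5) in AAV-TAU and 76.2 CPM (70.6 to 82.0) in AAV-STOP, a ratio of 0.738 (0.656 to 0.831). It was the 1 of 5 genes above the floors that passed 1.3-fold there, downward, where 3.46% of 7489 genes passed upward and 0.347% downward. A small group carried most of the UMIs and held fewer nuclei in AAV-TAU than in AAV-STOP. The part of its size in the class ratio was not tested. Sub-cluster 11, led by Cpa6, Ano2 and Zfhx3 and with Zic4 and Zic1 among its top genes, held 53 AAV-TAU and 101 AAV-STOP nuclei. It carried 342 of 476 AAV-TAU UMIs and 494 of 696 AAV-STOP UMIs, at 899 CPM in AAV-TAU and 678 CPM in AAV-STOP. Within it the ratio was 1.33 (1.15 to 1.53), above 1 where the class as a whole was below it. Without it Meis2 stood at 16.6 CPM in AAV-TAU and 24.0 CPM in AAV-STOP, a ratio of 0.690 (0.550 to 0.863). Of these nuclei 5.70% in AAV-TAU and 6.16% in AAV-STOP were positive, and 4 and 12 had 5 or more Meis2 UMIs. With those also left out, a choice made on Meis2 itself, Meis2 stood at 13.3 CPM in AAV-TAU and 11.4 CPM in AAV-STOP. The ratio was then 1.17 (0.879 to 1.56).

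In subicular or cortical-like nuclei Meis2 stood at 169.7 CPM (156 to 184) in AAV-TAU and 93.6 CPM (83.3 to 105) in AAV-STOP, a ratio of 1.81 (1.58 to 2.09). It was the 1 of 4 genes above the floors that passed, where 5.33% of 6037 genes passed upward and 0.845% downward. Here the level differed within 1 sub-group as well as over the whole. The class split at a finer resolution into cluster 25, with 352 AAV-TAU and 280 AAV-STOP nuclei, and cluster 28, with 223 and 224. In cluster 25 Meis2 stood at 275 CPM in AAV-TAU and 164 CPM in AAV-STOP, a ratio of 1.68 (1.45 to 1.95), and 34.7% and 23.9% of nuclei were positive. In cluster 28 it stood at 28.9 and 19.3 CPM, a ratio of 1.50 (0.919 to 2.46), from 44 and 30 UMIs. Nuclei with 5 or more Meis2 UMIs numbered 50 of the 352 AAV-TAU nuclei and 19 of the 280 AAV-STOP nuclei of cluster 25.

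**Figure D5:**
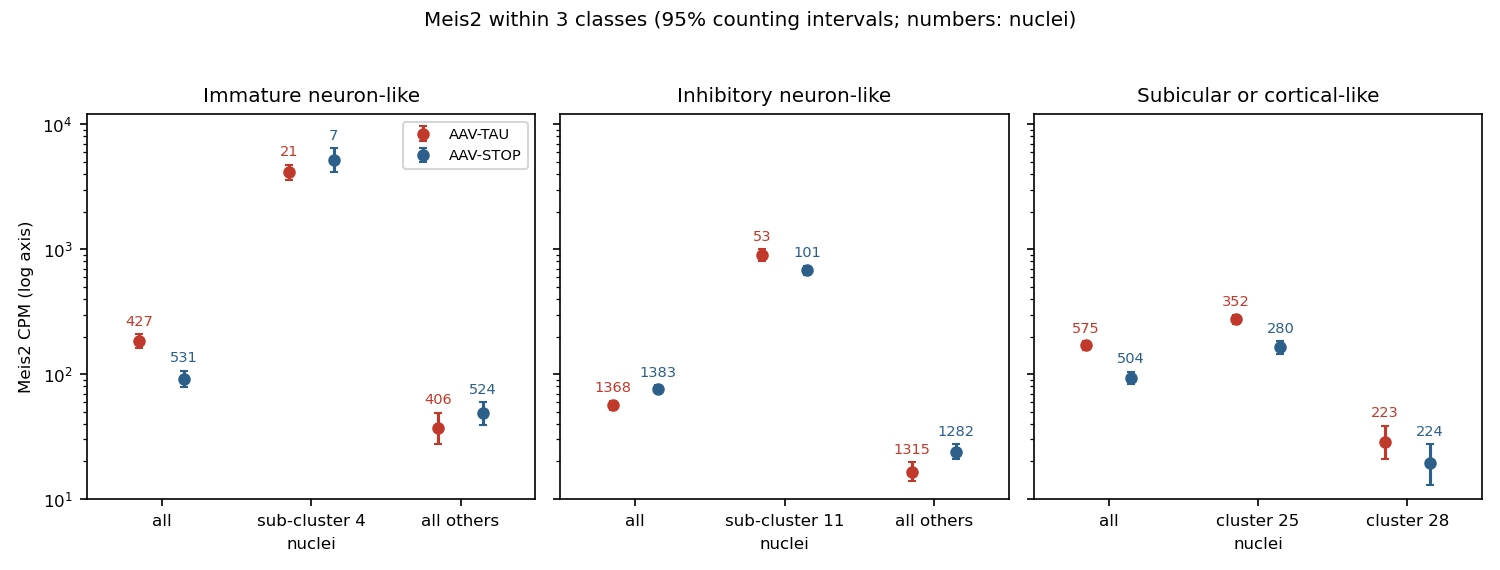
Meis2 CPM on a log axis in 3 classes, for all nuclei of the class and for its sub-groups, AAV-TAU in red left of AAV-STOP in blue, with 95% counting intervals and the number of nuclei above each point. In the immature neuron-like panel the 2-fold difference over all nuclei is absent from both sub-groups; in the subicular or cortical-like panel AAV-TAU is higher in every position.

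Cycling-like nuclei, 67 in AAV-TAU and 55 in AAV-STOP, were too few to compare and were of mixed type. Meis2 stood there at 288 CPM (224 to 365) in AAV-TAU and 605 CPM (504 to 720.1) in AAV-STOP, Prox1 at 171 and 130 CPM, and Sox11 at 100.3 and 76.8 CPM. Sub-cluster 2 of this class held 17 AAV-TAU and 19 AAV-STOP nuclei and had Meis2 at 842 CPM in AAV-TAU and 1613 CPM in AAV-STOP. Its leading genes mixed microglial genes such as Runx1 and Inpp5d with the interneuron genes Dlx6os1 and Dlx1as. Sub-cluster 0 held 13 and 9 nuclei, was led by Thrsp and had Prox1 at 358 CPM in AAV-TAU and 284 CPM in AAV-STOP. Sub-cluster 1 held 37 and 27 nuclei, was led by the oligodendrocyte precursor gene Lhfpl3, took the name oligodendrocyte precursor-like from its markers, and had Prox1 at 63.8 and 58.0 CPM.

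Across the 26 class-by-library profiles the 9 genes fell into loose groups by their pattern of log2(CPM + 5). Dcx and Sox11 correlated at 0.75 (Pearson's r over 26 profiles), Prox1 and Neurod1 at 0.72, Sox11 and Neurod1 at 0.62, and Sox2 and Hopx at 0.56. Neurod2 and Sox2 ran against each other, at -0.49. Each class enters once per library, so the profiles are not independent. Of 10317 candidate genes the closest to Dcx were Frmd3 at 0.95 and Mast2 at 0.92, and the closest to Sox11 were Pappa2 at 0.94 and Adamts18 at 0.90. The closest to Prox1 were Stxbp6 at 0.90 and the antisense gene Prox1os at 0.90, and the closest to Neurod1 was Bhlhe22, a bHLH factor, at 0.92. Stxbp6, Bhlhe22, Pappa2 and Adamts18 are markers or leading genes of the granule-like or immature neuron-like classes. The closest to Sox2 were Cdh20 at 0.94 and Psat1 at 0.91, and the closest to Hopx were Lfng at 0.92 and Cbs at 0.92. Sox4 came closest to Brca1 at 0.85, Neurod2 to Olfml2b at 0.86, and Meis2, the loosest, to Hunk at 0.80.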

How the data were processed

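Nuclei of pooled hippocampi were sequenced as 10x Genomics libraries, 1 per group. The deposited matrices hold raw counts of UMIs for each gene in each barcode, from the authors' run of Cell Ranger (8.0.1 per the file headers, 4.0 per the submitters' processing notes, which also name Seurat 4.4.0 and mm10). Gene positions come from GENCODE M21. No per-nucleus annotation was used, so classes were rebuilt with Python 3.11.15, scanpy 1.11.5, igraph 0.11.9, scipy 1.17.1 and numpy 2.4.6.

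Nuclei needed 500 UMIs, 300 genes and at most 5% mitochondrial UMIs; the deposited barcodes held 1633 or more UMIs in AAV-TAU and 1973 or more in AAV-STOP. Doublets were marked per library with scrublet (expected rate 0.15) and removed: 2315 AAV-TAU barcodes (11.8%) and 2552 AAV-STOP barcodes (12.6%). The raw totals were 109428807 and 130252240 UMIs. Counts were scaled to 10000 per nucleus, log transformed and clustered jointly on 3000 variable genes, 30 components, 15 neighbours and resolution 1, without the 9 genes. Clusters were named from marker sets: a mean log2 excess of 1.6 or more over the median cluster, a lead of 0.3, at least 3 markers over 2-fold at 10 CPM, no more markers of another type among the 10 leading genes, and for glial or vascular types Rbfox3 at no more than 50% of the neuronal median. Sub-clusters used 2000 variable genes. Members, lists, marker sets and thresholds were chosen with earlier results of these data known.

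Counts summed per class and library are given as CPM with exact Poisson intervals, shares with exact Clopper-Pearson intervals, and ratios with exact conditional intervals, all at 95% and covering counting error only. Log2 ratios add 5 CPM to both levels. No test was run. Named are the 9 genes in every compared class, per gene 1 or 2 of the 3 genes closest in pattern, and of each list at most 2 genes per class with the largest ratios, not all of which are printed. Igfbpl1, Rfx3, Stxbp6, Thrsp, Notch2, Tfap2c, Nes, Sox9, Hes1, Hes5, Id4, Gfap, Camk4, Bcl11b, C1ql2, Ccnd2 and Eomes were named in sub-clusters after their values were seen. The ratio code was checked on simulated counts.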

Additional observations from a re-analysis of the deposited data

Results flagged for a closer look

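Meis2 had ratios of AAV-TAU over AAV-STOP of opposite direction in different classes. The log2 ratio was 0.96 in immature neuron-like nuclei, 0.83 in subicular or cortical-like nuclei and -0.41 in inhibitory neuron-like nuclei. With 1 library per group the difference between these classes was not tested.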

How the results depend on the processing

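The number of gene-class pairs past 1.3-fold was 3 and lay between 1 and 4 under the 10 alternatives; it was 1 at clustering resolution 0.5, where no immature neuron-like class formed. The ratio of immature neuron-like shares stayed below 1, at 0.765 to 0.865, under each alternative that could give it. Of 364 single log2 ratios under these alternatives, 11 lay outside the interval of the reported value and 32 had the other sign. Meis2 in subicular or cortical-like nuclei kept its direction and stayed past 1.3-fold in all of them (0.59 to 1.00). Meis2 in inhibitory neuron-like nuclei kept its direction but fell short of 1.3-fold with the 9 genes left in the clustering (-0.35), at resolution 2 (-0.34), at resolution 0.5 (-0.18) and with nuclei thinned to 1600 UMIs (-0.31); the cause was not tested. Meis2 in immature neuron-like nuclei was 0.63 to 0.99 under the 9 alternatives that formed the class. The alternatives that split classes by sub-cluster were chosen after seeing the data: without sub-cluster 4 Meis2 in immature neuron-like nuclei was -0.34, below the floor of 100 UMIs. No paired analysis was possible because each group has 1 library. Sox4 and Hopx passed the floors in no class. Counts fell short where they were highest, with 46 Sox4 UMIs in newly formed oligodendrocyte-like and 82 Hopx UMIs in astrocyte-like nuclei of AAV-STOP. In granule-like nuclei Sox4 had 136 UMIs in AAV-TAU, and there its level of 6.04 CPM fell short.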

Other observations

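High Meis2 levels were also found in clusters that took no name and enter no comparison above. Cluster 6, led by Vwc2l and Npsr1, had 545 CPM in AAV-TAU and 629 CPM in AAV-STOP, from 411 and 348 nuclei. Cluster 10, led by Vwc2l and Tshz2, had 450.0 CPM in AAV-TAU and 497 CPM in AAV-STOP, from 452 and 362 nuclei. Cluster 28, led by Rmst and Ankfn1, had 215 CPM in AAV-TAU and 504 CPM in AAV-STOP, from 201 and 510 nuclei.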
